A study of Mus musculus with 10 samples.

Results

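Angpt1, Angpt2, Angpt4 and Ptprb were followed through mouse skin as a set chosen by name: the 3 angiopoietins, which bind the receptor Tie2, and Ptprb, which encodes the phosphatase VE-PTP. They are 4 of the 42526 genes shared by the 8 plate count tables, and 4 of the 32285 genes of both 10x matrices. Angiopoietins are secreted proteins that bind Tie2 (gene Tek), while Tie1 is a related receptor that modulates Tie2 signaling. Angpt1, known mainly from mural and other mesenchymal cells, activates Tie2, and Angpt2, made by endothelial cells, acts as an agonist or an antagonist depending on context. Transcription of Angpt2 is raised by FOXO1, which the Tie2 and AKT cascade keeps out of the nucleus, and VE-PTP removes phosphate from Tie2 at endothelial junctions.

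Lymphatic endothelial cells (LECs) were sorted from skin with podoplanin and CD31 into plates, 1 cell per well, and Smart-seq libraries covering the whole transcript were made from each well. The groups were Tie1 fl/fl, Prox1CreERT2 Tie1 fl/fl (Tie1 iΔLEC), Tie1 fl/fl Tie2 fl/fl (Tie1 Tie2 fl/fl) and Prox1CreERT2 Tie1 fl/fl Tie2 fl/fl (Tie1 Tie2 iΔLEC), with 2 plates each. The first plate of both Tie1 groups was labelled female and the other 6 plates male. All of them received 62.5 µg of 4-hydroxytamoxifen (4-OHT) from P1 to P5, so the controls lacked Cre but not the drug. Deletion was driven by Prox1, which marks LECs, and wells that kept Tie1 were present in the deleted groups. Ages in the labels are those of the 4-OHT window, whereas the paper places the analysis of the deleted pups on P28. The number of mice behind a plate was not given in the sources used here, so p-values measure the spread between plates, which may be technical. Skin cells of C57BL/6J wild-type pups sorted on CD31 made up 2 droplet (10x) libraries, 1 after IgG and 1 after Ang2 Ab, both at 20 mg/kg from P16 to P21. With 1 library per treatment no test was possible there, and intervals cover counting error only.

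The 4 genes lie on separate chromosomes of GRCm38. Angpt1 (ENSMUSG00000022309) spans chr15:42424723-42676977 on the minus strand, and 737 of its 5205 exon bases (14.2%) are shared with the antisense gene Gm17473. Angpt2 (ENSMUSG00000031465) spans chr8:18690263-18741562 on the minus strand and lies within Mcph1 on the plus strand, with 0 shared exon bases. Angpt4 (ENSMUSG00000027460) spans chr2:151911210-151945337 and Ptprb (ENSMUSG00000020154) chr10:116275523-116389535, both on the plus strand. Ptprb overlaps Gm26495 and Gm47625 in its introns, again with 0 shared exon bases. Each angiopoietin has 9 exons in its longest coding transcript, and Ptprb has 34. The stretches below are the longest runs of identical bases that 2 angiopoietin coding sequences share, shown because a read confined to one of them could not be assigned to 1 gene. They are written 5′ to 3′ on the coding strand, from the GENCODE transcripts.

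Angpt1 and Angpt2, 17 bases, chr15:42426983-42426999 and chr8:18692061-18692077: accatgatgatccggcc
Angpt1 and Angpt4, 13 bases, chr15:42676170-42676182 and chr2:151911650-151911662: actcagtggctgc
Angpt2 and Angpt4, 17 bases, chr8:18698169-18698185 and chr2:151938930-151938946: actggctgggcaatgag

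All 3 runs are exonic and far shorter than the coding sequences of 1497, 1491 and 1530 bases.

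After wells with fewer than 1000 genes were removed, 2743 LEC wells remained, 303 to 365 per plate, with 67195995 to 104375651 counts per plate. The deposited tables had 2 layouts, 1 plate of each per group, and median genes per LEC well were 5783 to 6997 in one (naming genes by symbol) and 3597 to 4967.5 in the other (naming them by identifier). Tie1 and Tek followed the labels. Tie1 stood at 2211 to 2868 normalized CPM (counts scaled to a common library size) in the 4 Cre-negative plates and at 461 to 739 in the 4 Cre-positive plates. Tek stood at 32.5 and 53.2 CPM in the Tie1/-2–deleted plates and at 214 to 340 CPM elsewhere. The 8 LEC markers summed to 8591 to 9981 CPM on the plates.

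Angpt2 was the angiopoietin of these LECs, and it was higher after deletion of the Tie receptors. The Tie1 fl/fl plates had 336 and 389.6 CPM (363 ± 37.9, mean ± SD, n = 2) and the Tie1 iΔLEC plates 883 and 1009 CPM (946 ± 89.3, n = 2). The Tie1 Tie2 fl/fl plates had 264 and 515 CPM (389 ± 177, n = 2) and the Tie1 Tie2 iΔLEC plates 3237 and 2639 CPM (2938 ± 423, n = 2). Every deleted plate lay above every control plate, and both doubly deleted plates lay above both Tie1-deleted plates.

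**Figure D1:**
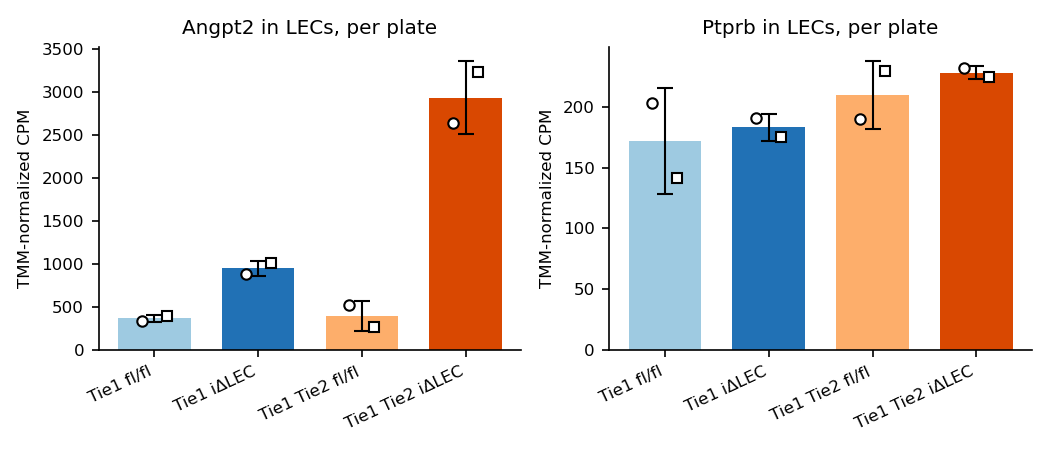
TMM-normalized CPM of Angpt2 (left) and Ptprb (right) in the summed LEC wells of each plate. Bars are means of 2 plates, error bars are SD, circles are plates of the symbol layout and squares are plates of the identifier layout. Angpt2 rose from 389 ± 177 to 2938 ± 423 CPM with Tie1/-2 deletion, while Ptprb stayed between 142 and 233 CPM on all plates.

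With Tie1/-2 deletion Angpt2 rose by 2.92 on the log2 scale (SE 0.32, 95% interval 2.18 to 3.65, adjusted p = 0.00492, edgeR quasi-likelihood test with Benjamini-Hochberg adjustment over 19907 genes). Genes called higher made up 0.291% of those tested in this comparison. Among the 9780 genes whose mean reached 10 CPM, Angpt2 had the 26th largest rise. Averaged over both deletions, the rise was 2.15 (SE 0.22, 95% interval 1.65 to 2.65, adjusted p = 0.00529), with 0.286% of genes called higher.

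With Tie1 deletion alone Angpt2 was 1.38 higher on the log2 scale (SE 0.30, 95% interval 0.69 to 2.08). The unadjusted p of 0.0017 ranked it 40th of 19907 genes, and it did not pass the adjustment (adjusted p = 0.803, edgeR). In this comparison edgeR called 0 genes (0% called higher), and Tie1 itself was not called (adjusted p = 0.257). An unadjusted p under 0.05 was found for 860 of the 19907 genes, no more than that threshold alone lets through. DESeq2 called 248 genes with Angpt2 among them (adjusted p = 0.0257), and edgeR without the filter on low counts called 267, again with Angpt2 (adjusted p = 8.71e-05). The call for Tie1 deletion therefore depended on the test, whereas the size of the difference ranged from 1.27 to 1.49 when each plate was left out in turn.

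The difference in Angpt2 between Tie1/-2 deletion and Tie1 deletion was 1.53 (SE 0.42, 95% interval 0.56 to 2.50), with an unadjusted p of 0.0064 and an adjusted p of 0.396 by edgeR. No gene was called higher in that comparison by edgeR (0%), while 26 were called lower, and 1463 of the 19907 genes had an unadjusted p under 0.05. DESeq2 called 515 genes in either direction there.

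Other cell types were measured beside Angpt2. Summed BEC markers were at 353 to 394 CPM in the 4 Cre-positive plates and at 442 to 489.7 CPM in the 4 Cre-negative plates. Their part in the Angpt2 levels was not tested. The 8 mural markers summed to 11.0 to 21.8 CPM in Tie1 fl/fl, 50.3 to 50.99 in Tie1 iΔLEC, 26.2 to 64.0 in Tie1 Tie2 fl/fl and 151 to 169 in Tie1 Tie2 iΔLEC plates. Kcnj8, a potassium channel gene that also led the capillary-like LEC cluster, accounted for 151 and 134 CPM of the last sum. Without it the other 7 genes summed to 9.54 to 16.4 CPM in Tie1 fl/fl and, higher without overlap, to 22.0 to 27.1 CPM in Tie1 iΔLEC, and to 8.63 to 54.8 CPM in Tie1 Tie2 fl/fl against 16.7 to 18.3 CPM in Tie1 Tie2 iΔLEC plates. In the doubly deleted plates Abcc9 was at 15.9 and 5.69 CPM (10.9 and 0.932 in their controls), Acta2 at 2.17 and 7.29, Des at 0.104 and 3.44, Cspg4 at 0 and 0.134, and Rgs5, Pdgfrb and Notch3 each at or below 0.0766 CPM. The part of mural RNA in the Angpt2 levels was not tested.

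The LECs were clustered without the 4 genes, Tie1, Tek and the Tie pathway genes, and 6 sets of wells had at least 10 wells on each plate. These were capillary-like (496 wells), collector-like (349) and valve-like (376) LECs, named from markers, and 3 clusters without a name: cluster 0 led by Edn1 (413 wells), cluster 2 led by Lars2 (228) and cluster 3 led by Igfbp5 (297). In all 6 the Tie1 Tie2 iΔLEC plates had more Angpt2 than the Tie1 Tie2 fl/fl plates, without overlap.

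Capillary-like LECs had 240 and 379 CPM of Angpt2 in Tie1 Tie2 fl/fl and 2724 and 2409 CPM in Tie1 Tie2 iΔLEC plates. The rise of 3.05 was called (adjusted p = 0.00485, edgeR, with 0.0200% of genes called higher in that class). Collector-like LECs had 147 and 305 CPM against 2770 and 1962 CPM, a rise of 3.39 (adjusted p = 0.0106, with 0.0210% called higher). That class held 71 and 63 wells on the control plates and 11 and 15 on the deleted plates.

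Valve-like LECs began higher, at 704 and 1254 CPM in Tie1 Tie2 fl/fl, and stood at 4242 and 2668 CPM after Tie1/-2 deletion. This difference of 1.82 (95% interval 0.98 to 2.66) was not called (adjusted p = 0.137, edgeR, 0.0206% called higher). Of the 2 valve-like clusters, the one led by Hbegf held 20 and 16 control wells and 1 well on each deleted plate. In the one led by Slc41a1 alone the difference was 1.95 (adjusted p = 0.347, edgeR).

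In cluster 0 Angpt2 rose by 2.49 (adjusted p = 0.0345, edgeR, 0.0280% called higher), and in cluster 2 by 3.50 (adjusted p = 0.0102, 0.0245% called higher). In cluster 3 it was 3.41 higher and not called (adjusted p = 0.0751, 0.0293% called higher). The capillary-like and collector-like calls were lost when the first Tie1 Tie2 fl/fl plate was left out (adjusted p = 0.0553 and 0.0581, edgeR). The call in cluster 0 was lost without any 1 of the 4 Tie1 Tie2 plates, with adjusted p of 0.0761 to 0.118.

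**Figure D2:**
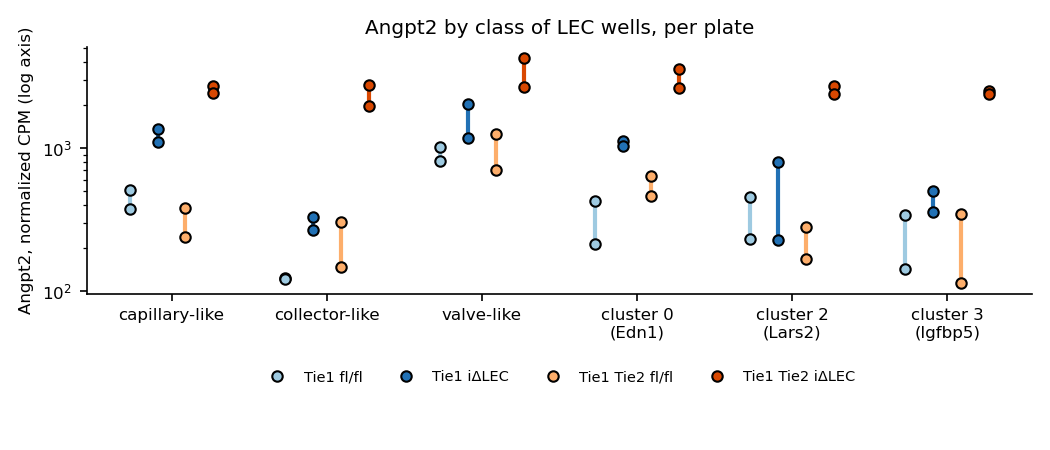
Normalized CPM of Angpt2 (log axis) in 6 sets of LEC wells, with 1 point per plate and a line joining the 2 plates of a group. The Tie1 Tie2 iΔLEC plates lay between 1962 and 4242 CPM in every set, and collector-like wells of the Tie1 Tie2 fl/fl plates were at 147 and 305 CPM.

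With Tie1 deletion, Angpt2 was called in 0 of the 6 sets by edgeR, where 0% of genes were called higher in each set. Its unadjusted p was under 0.05 in 3 of them. Capillary-like LECs had 376 and 512 CPM in Tie1 fl/fl and 1349 and 1110 CPM in Tie1 iΔLEC plates, a difference of 1.47 (adjusted p = 0.717, edgeR). Cluster 0 had 212 and 424 against 1112 and 1039 CPM, and collector-like LECs 124 and 121 against 267 and 330 CPM. The deleted plates were above the controls without overlap in 5 of the 6 sets. In cluster 2 they did overlap, at 230 and 456 CPM in the controls and 226 and 802 CPM after deletion.

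Of the 3 named classes of LECs, valve-like wells had the most Angpt2 and collector-like wells the least on average, though not on every plate. On the 4 Cre-negative plates the mean within-plate difference in log2(CPM + 1) was 2.51 for valve-like against collector-like, 1.36 for valve-like against capillary-like and 1.14 for capillary-like against collector-like LECs. With 4 plates the smallest p of the exact sign-flip permutation test is 0.125, which each of the 3 reached. Over all 8 plates the differences were 1.98 (8 of 8 plates), 0.86 (7 of 8) and 1.13 (7 of 8), each with an adjusted p of 0.0234 over the 3 pairs by the exact test. Use of all 8 plates had been planned for members that did not change between groups, and Angpt2 did change. On the 4 Cre-positive plates valve-like exceeded capillary-like LECs by 0.35 only. With wells of at least 2000 genes alone, the capillary-like against collector-like difference was 0.30 (adjusted p = 0.156, exact test).

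Counted by well, nearly all LECs had at least 100 CPM of Angpt2 after Tie1/-2 deletion. At least 1 Angpt2 count already lay in 82.0% and 99.7% of Tie1 Tie2 fl/fl wells, so this describes the level rather than presence. The share of wells with at least 100 CPM was 45.2% and 31.2% in Tie1 fl/fl, 83.7% and 55.7% in Tie1 iΔLEC, 29.0% and 52.4% in Tie1 Tie2 fl/fl, and 97.5% and 99.4% in Tie1 Tie2 iΔLEC plates. All 4 deleted plates were above all 4 controls, by 44.6 percentage points on average (exact permutation p = 0.0556, two-sided, within strain, the smallest that the 36 arrangements allow). This threshold was added after the data were seen, because low counts lay in nearly all wells of the symbol layout.

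The share with at least 1 count, after thinning to 50000 counts, followed the layout as well as the genotype. It was 84.5% and 52.2% in Tie1 fl/fl, 98.0% and 71.7% in Tie1 iΔLEC, 56.8% and 87.1% in Tie1 Tie2 fl/fl, and 99.1% and 100% in Tie1 Tie2 iΔLEC plates (exact permutation p = 0.167 for deleted against control). The median well had 83.8 and 12.1 CPM of Angpt2 in Tie1 fl/fl, 550.0 and 372 in Tie1 iΔLEC, 10.8 and 119 in Tie1 Tie2 fl/fl, and 2925 and 2800.4 in Tie1 Tie2 iΔLEC plates. In the last group the 10th percentile was 619.9 and 1021 CPM, above the median wells of its own controls, Tie1 Tie2 fl/fl (10.8 and 119 CPM). The third quartile of wells of the other control group, Tie1 fl/fl, was 376 and 394 CPM.

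**Figure D3:**
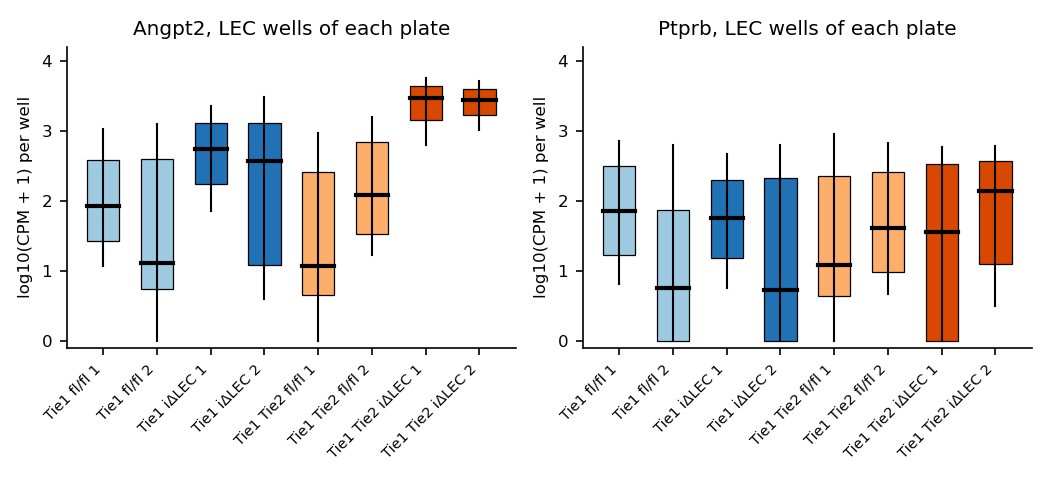
Distribution of log10(CPM + 1) of Angpt2 (left) and Ptprb (right) over the LEC wells of each plate. Boxes span the quartiles with the median as a black line, and thin lines run from the 10th to the 90th percentile. Median Angpt2 was 2925 and 2800.4 CPM per well in the Tie1 Tie2 iΔLEC plates, and median Ptprb was 4.31 to 136 CPM over the 8 plates.

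Wells of the deleted plates differed in how much Tie1 they had kept. In the Tie1 iΔLEC plates, 146 and 223 wells had under 100 CPM of Tie1, and their Angpt2 was 1068 and 1168 CPM. The 111 and 118 wells that kept at least 500 CPM of Tie1 had 623 and 662 CPM of Angpt2, between those levels and the 360 and 379 CPM of the same kind of well on the Tie1 fl/fl plates. In the Tie1 Tie2 iΔLEC plates, wells with under 100 CPM of Tie1 had 3450 and 2949 CPM of Angpt2, and wells with at least 500 CPM had 2641 and 2424. The latter compare with 273 and 525 CPM in wells with at least 500 CPM of Tie1 on the Tie1 Tie2 fl/fl plates. Tek was at 57.0 and 105 CPM in these wells of the deleted plates, against 291 and 295 CPM in those of the controls. In wells with under 100 CPM of Tie1, Tek was at 9.28 and 19.7 CPM on the deleted plates. Wells that kept Tie1 thus had less Tek than their controls and more than wells with little Tie1. They were not taken as undeleted LECs. Collector-like wells numbered 71 and 63 on the control plates and 11 and 15 on the deleted plates. The part of this shift in the Tek levels was not tested. Wells of 1 plate are not replicates, so these values carry no test.

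In the 10x libraries 3438 of 4685 barcodes were kept after IgG and 2963 of 4331 after Ang2 Ab, and 5 barcodes occurred in both libraries. They held 1268 and 710 LECs and 1255 and 1322 blood vascular endothelial cells (BECs), with medians of 12047.5 and 11432 UMIs per LEC and 8930 and 7374.5 per BEC. The library labelled Ang2 antibody carries the word control in its title, and both were labelled male although Xist, the transcript of the inactive X chromosome, had a UMI in 55.4% and 38.8% of kept cells. This check was chosen after its values were seen, and directions below rest on the treatment labels. Summed over LECs, the 7 capillary LEC markers were at 2988 CPM in the library labelled IgG and 4569 CPM in that labelled Ang2 Ab, and the 7 collector LEC markers at 1140.1 and 648 CPM. The same lists were at 4344 and 4378 against 6064.5 and 5566 CPM, and at 4655 and 4727 against 2799.5 and 1999 CPM, in Tie1 Tie2 fl/fl against Tie1 Tie2 iΔLEC plates, so both lists differed in the same direction. The 5 valve LEC markers did not share this: they were at 859 CPM after IgG and 1162 CPM after Ang2 Ab. On the Tie1 Tie2 plates they overlapped, at 1229 and 1974 CPM in Tie1 Tie2 fl/fl against 1266 and 974 CPM in Tie1 Tie2 iΔLEC. In Tie1 fl/fl against Tie1 iΔLEC plates they were higher without overlap, at 1369 and 1303 against 1844 and 2052 CPM. The capillary markers overlapped in that comparison, at 4235 and 5334 against 4867 and 5597 CPM. The collector markers were lower there, at 4426 and 4478 against 3823 and 3432 CPM. These lists were set beside the labels after their values were seen.

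Angpt2 was higher in the library labelled Ang2 Ab, most of all in LECs. LECs had 2435 UMIs after IgG (145 CPM, 95% Poisson interval 139 to 151) and 8160 after Ang2 Ab (893 CPM, 874 to 913), a ratio of 6.16 (95% interval 5.88 to 6.44). This was the 8th highest ratio of 10549 genes with at least 100 UMIs in LECs, of which 0.929% were more than 2-fold higher. With the 2 labels exchanged the same values would give the 8th lowest ratio, and those genes would be more than 2-fold lower. BECs had 822 UMIs (66.8 CPM) and 1266 UMIs (115 CPM), a ratio of 1.72 (1.58 to 1.88), the 60th highest of 10327 genes. In BECs 0.726% of genes were past 2-fold in either direction, and Angpt2 was not.

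The share of LECs with an Angpt2 UMI was 48.2% after IgG and 86.8% after Ang2 Ab. Thinned to 3000 UMIs per cell it was 24.3% and 70.0%. In BECs the shares were 24.4% and 34.6%, and 11.4% and 20.3% after thinning. Keratinocyte-like cells, which should lack the gene, had an Angpt2 UMI in 10.3% of cells in both libraries, at 7.10 and 25.4 CPM. Their median depths were 10226 and 12288 UMIs. After thinning their share was 9.09% and 4.35%. This background is imprecise, because it rests on 5 and 14 Angpt2 UMIs before thinning. The thinned share of BECs after IgG was close to it, while those of LECs were above it. By level, however, BECs stood at 66.8 and 115 CPM, above the 7.10 and 25.4 CPM of keratinocyte-like cells.

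All 5 LEC clusters had a higher Angpt2 level after Ang2 Ab. Capillary-like LECs went from 159 to 1001 CPM (ratio 6.29), the cluster led by Gdf15 from 81.8 to 695 CPM (8.49) and the cluster led by Pkhd1l1 from 59.4 to 372 CPM (6.26). The valve-like clusters had the highest IgG levels and the lowest ratios among LECs, 317 to 932 CPM in the one led by Sbspon (2.94, 95% interval 2.67 to 3.25) and 407 to 1596 CPM in the one led by Slc41a1 (3.92, 3.54 to 4.35). Valve-like LECs were thus the LECs with the most Angpt2 in the IgG library, as on the Cre-negative plates.

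Among BECs, Angpt2 after IgG was lowest in arterial-like cells (12.3 CPM) and highest in the venous-like cluster led by Cysltr1 (160 CPM). The 3 capillary-like BEC clusters, led by Rgcc, Col13a1 and Prnd, had 51.8, 49.1 and 103 CPM after IgG and 104, 103 and 181 CPM after Ang2 Ab. Arterial-like cells had 37.3 CPM after Ang2 Ab (19 and 59 UMIs, ratio 3.04, 1.79 to 5.40), and the cluster led by Lrat went from 58.4 to 182 CPM. The keratinocyte-like background was at 7.10 and 25.4 CPM, with a ratio of 3.57 (1.22 to 12.7). The part of such background in the arterial-like levels was not tested. The 2 venous-like clusters were not higher. The one led by Cysltr1 had 202 UMIs after IgG and 79 after Ang2 Ab (88.0 CPM, ratio 0.55, 0.42 to 0.72), and the one led by Sele 74.8 and 64.1 CPM (0.86, 0.62 to 1.17). In the former, 1 cell of the IgG library held 82 of the 202 UMIs, and the share of cells with a UMI was 27.1% and 29.0%.

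Mural-like cells also held Angpt2, at 120 CPM (318 UMIs) after IgG and 202 CPM (557 UMIs) after Ang2 Ab, a ratio of 1.68 (1.46 to 1.94). Without the part of this cluster that also had raised BEC markers, the levels were 149 and 232 CPM. Proliferating cells had 90.2 and 385 CPM.

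**Figure D4:**
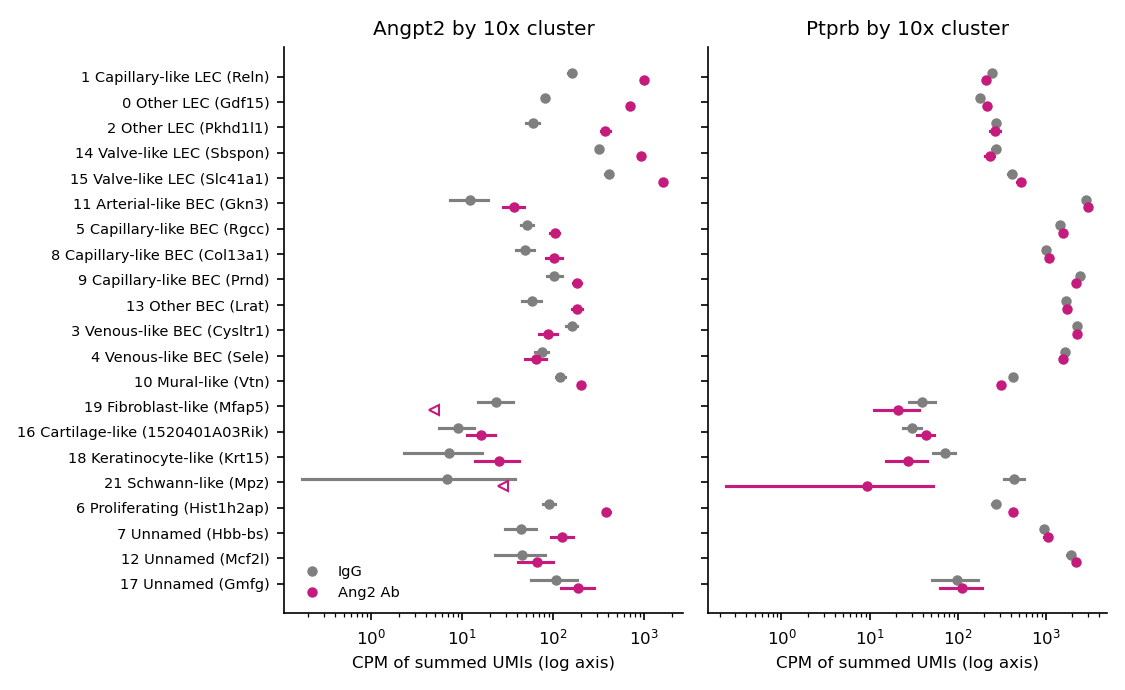
CPM of summed UMIs (log axis) of Angpt2 (left) and Ptprb (right) in each 10x cluster after IgG (grey) and Ang2 Ab (magenta), with exact 95% Poisson intervals. Open triangles mark the level of 3 UMIs where the count was 0. Angpt2 was higher after Ang2 Ab in all 5 LEC clusters, and Ptprb was highest in arterial-like BECs in both libraries, at 2875 and 2992 CPM.

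Angpt1 was next to absent from LECs. The 2743 LEC wells held 105 Angpt1 counts, in 27 wells. The levels were 0.298 and 0.0134 CPM in Tie1 fl/fl, 0.482 and 0.0130 in Tie1 iΔLEC, 0.200 and 0.175 in Tie1 Tie2 fl/fl, and 0 counts in both Tie1 Tie2 iΔLEC plates. With 0 counts in 365 and 355 wells, shares of up to 0.822% and 0.845% are allowed. A sum of 3 counts would be 0.0446 and 0.0287 CPM there. This is no upper limit of the level, because 1 well can hold many reads. On the first plates of Tie1 fl/fl and Tie1 iΔLEC, 1 well held 89.3% and 76.2% of the counts. Neither edgeR nor any alternative called Angpt1, and no fold change is given because it would rest on a few wells.

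In skin, Angpt1 UMIs came from mural-like, fibroblast-like and cartilage-like cells. Mural-like cells had 62 UMIs after IgG (23.4 CPM, 17.9 to 30.0) and 102 after Ang2 Ab (36.9 CPM, 30.1 to 44.8), in 19.1% and 23.0% of cells. Fibroblast-like cells had 25 and 18 UMIs (26.9 and 29.4 CPM), and cartilage-like cells 28 and 23 UMIs (11.4 and 11.3 CPM). LECs had 6 and 2 UMIs in 1268 and 710 cells, and BECs 8 and 4 in 1255 and 1322 cells. Endothelial levels were therefore below 1 CPM in each library, against over 10 CPM in the 3 mesenchymal classes.

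The Angpt1 ratio of Ang2 Ab to IgG in mural-like cells was 1.58 (1.14 to 2.20). Without the cells that also had raised BEC markers, the levels were 36.3 and 49.5 CPM and the ratio was 1.36, with an interval that includes 1 (0.97 to 1.94). In fibroblast-like and cartilage-like cells the ratios were 1.09 (0.56 to 2.09) and 0.99 (0.55 to 1.78).

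Angpt4 was likewise close to absent from endothelium. LEC wells held 132 Angpt4 counts, in 65 of 2743 wells, of which 108 counts lay in 44 wells of the first Tie1 Tie2 fl/fl plate. That plate had 1.35 CPM, the other Tie1 Tie2 fl/fl plate 0.0515, the Tie1 fl/fl plates 0.128 and 0, and the Tie1 iΔLEC plates 0.0344 and 0.0518. Both Tie1 Tie2 iΔLEC plates had 0 counts, with the same limits of the share of wells as for Angpt1. No LEC well reached 100 CPM of Angpt4, and edgeR called it in no contrast. Without the filter on low counts edgeR called it lower with Tie1/-2 deletion (adjusted p = 0.0183) and on average (adjusted p = 0.0496). The 2 control plates of the former had 108 and 5 counts.

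The first Tie1 Tie2 fl/fl plate was also the one with the most fibroblast RNA in its LEC wells, at 237 CPM of the 5 summed fibroblast markers against 19.2 to 56.5 CPM on the other 7 plates. Fibroblast-like wells, which had been set aside, were shallow, with 0.107 times the median depth of all wells. Of these 258 wells, 244 had a Tie1 count, 239 an Angpt2 count and 188 a Ptprb count. They thus held endothelial RNA too, and the name does not establish that they were fibroblasts. They held 371 Angpt4 counts in 25 of 258 wells, and 352 of these counts were in 19 of the 46 such wells of that same plate, where 1 well reached 816 CPM. The part of this RNA in the Angpt4 counts of LEC wells was not tested.

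In the 10x libraries Angpt4 had 0 UMIs in LECs, BECs and mural-like cells of both libraries. Levels of up to 0.179 and 0.328 CPM in LECs and 0.244 and 0.273 CPM in BECs are allowed by these counts of 0. Fibroblast-like cells had 3 UMIs in 2 of 42 cells after IgG (3.23 CPM) and 19 UMIs in 4 of 34 cells after Ang2 Ab (31.1 CPM), where 1 cell held 13 of the 19. Cartilage-like cells had 27 and 24 UMIs (11.0 and 11.8 CPM), in 14.3% and 9.76% of cells.

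**Figure D5:**
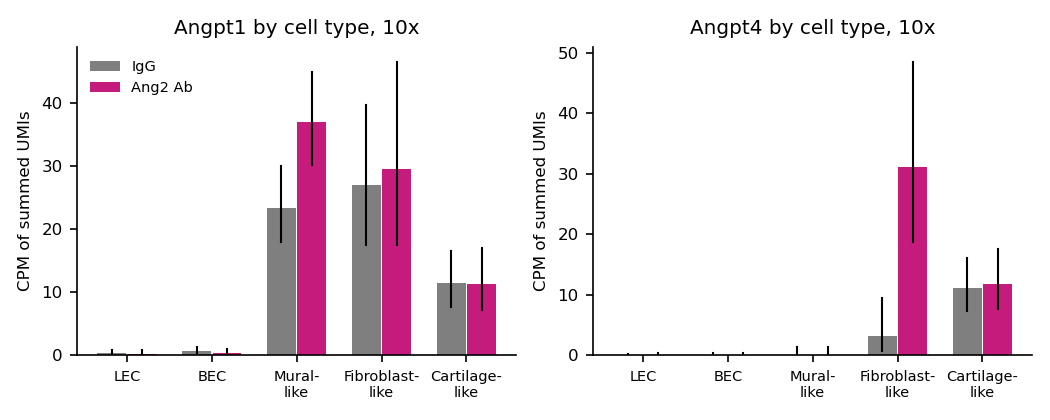
CPM of summed UMIs of Angpt1 (left) and Angpt4 (right) in 5 cell types of the 10x libraries after IgG (grey) and Ang2 Ab (magenta). Lines are exact 95% Poisson intervals. Angpt1 was at 23.4 and 36.9 CPM in mural-like cells and under 1 CPM in LECs and BECs, and Angpt4 had UMIs in fibroblast-like and cartilage-like cells and 0 in the other 3 types.

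Ptprb, the phosphatase, differed from Angpt2 in that it was a BEC gene that LECs held at a lower level. By edgeR it was called after neither deletion, whereas Angpt2 was called with Tie1/-2 deletion and not with Tie1 deletion. LEC levels were 203 and 142 CPM in Tie1 fl/fl (172.5 ± 43.7, mean ± SD, n = 2), 191 and 176 in Tie1 iΔLEC (183 ± 10.8), 229.9 and 191 in Tie1 Tie2 fl/fl (210.2 ± 27.8) and 225 and 233 in Tie1 Tie2 iΔLEC plates (229 ± 5.66). The groups overlapped in Tie1 deletion, and in Tie1/-2 deletion 1 of the 2 control plates lay between the 2 deleted plates.

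By edgeR the log2 difference in Ptprb was 0.09 with Tie1 deletion (95% interval -0.46 to 0.63), 0.12 with Tie1/-2 deletion (-0.42 to 0.67) and 0.11 on average (-0.28 to 0.49). None of these 3 intervals reached beyond 0.67 on the log2 scale in either direction. They hold for all LEC wells summed and cover the spread between plates only. The difference between the deletions was 0.03 (-0.74 to 0.80). In the 6 sets of LEC wells Ptprb was called in 0 of the contrasts by edgeR, and none of the 12 differences with Tie1 or Tie1/-2 deletion had an unadjusted p under 0.05. Few genes were called in these sets at all. The shares in either direction were 0% with Tie1 deletion, 0.163% to 0.254% with Tie1/-2 deletion and at most 0.194% in the other contrasts. DESeq2 did not call it in LECs either. The share of wells with at least 100 CPM was 43.2% and 22.3%, 40.1% and 30.3%, 32.3% and 39.3%, and 41.4% and 53.5% in the same order of groups (exact permutation p = 0.333).

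Per kb of exon, which takes account of the lengths of the 2 genes, Ptprb stood at 10.6 to 17.5 CPM per kb over the 8 plates. Angpt2 stood at 91.0 and 106 CPM per kb in Tie1 fl/fl plates. It stood at 71.6 and 139 CPM per kb in Tie1 Tie2 fl/fl and at 877 and 715 CPM per kb in Tie1 Tie2 iΔLEC plates. The ratio of Angpt2 to Ptprb per kb was 5.97 and 9.94 in Tie1 fl/fl, 16.7 and 20.7 in Tie1 iΔLEC, 4.15 and 9.76 in Tie1 Tie2 fl/fl, and 52.0 and 41.0 in Tie1 Tie2 iΔLEC plates. LECs of every plate thus held more Angpt2 than Ptprb on this scale. The 10x LECs after IgG had the reverse order, at 145 CPM of Angpt2 and 233 CPM of Ptprb in UMIs not scaled by length. After Ang2 Ab they had 893 and 251 CPM. The plates and the 10x library differed in genotype, 4-OHT, age and sort as well as in platform, and these cannot be told apart here. The cause of the disagreement was not tested, so the order of the 2 genes in control LECs is not settled.

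Among the same 3 classes Ptprb was also highest in valve-like wells, but it was lower in capillary-like than in collector-like wells. Valve-like exceeded capillary-like LECs by 1.16 and collector-like LECs by 0.46 in log2(CPM + 1), on 8 of 8 plates each (adjusted p = 0.0117, exact sign-flip permutation test over the 3 pairs). Capillary-like LECs were 0.70 below collector-like LECs, with 1 of 8 plates the other way (adjusted p = 0.0156, exact test). On the 4 Cre-negative plates the 3 differences were 1.19, 0.45 and -0.75, and on the 4 Cre-positive plates 1.13, 0.47 and -0.66. Capillary-like and collector-like LECs thus took opposite orders for Angpt2 and Ptprb. With wells of at least 2000 genes alone, the last difference was -0.45 (adjusted p = 0.0938, exact test).

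In the 10x libraries Ptprb had 22203 UMIs in BECs after IgG and 21364 after Ang2 Ab, at 1803 and 1941 CPM. LECs had 3906 and 2289 UMIs, at 233 and 251 CPM. BECs therefore exceeded LECs 7.75-fold in both libraries (95% intervals 7.49 to 8.02 and 7.42 to 8.09). A UMI of Ptprb was found in 98.7% and 98.4% of BECs and in 80.0% and 80.1% of LECs. Thinned to 3000 UMIs the shares were 96.2% and 95.2% in BECs and 45.9% and 43.1% in LECs. Keratinocyte-like cells had 71.0 and 27.2 CPM of Ptprb and a UMI in 28.2% and 20.7% of cells, below the shares in LECs and BECs.

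Ptprb was highest in arterial-like BECs, at 2875 CPM after IgG and 2992 CPM after Ang2 Ab, where Angpt2 was lowest. The capillary-like cluster led by Prnd followed at 2434 and 2195 CPM and the venous-like cluster led by Cysltr1 at 2287 and 2275 CPM. The other BEC clusters ranged from 1009 to 1755 CPM. LEC clusters ranged from 177 to 519 CPM, with the valve-like cluster led by Slc41a1 highest in both libraries (408 and 519 CPM). No LEC cluster reached the level of any BEC cluster.

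Beside Ang2 Ab the Ptprb ratio was 1.08 in LECs (1.02 to 1.13) and 1.08 in BECs (1.06 to 1.10), where the median over all genes was 0.998 and 1.02. The LEC clusters went both ways. The ratio was 0.84 (0.75 to 0.93) in capillary-like LECs and 0.85 (0.74 to 0.99) in the valve-like cluster led by Sbspon. It was 1.23 (1.12 to 1.35) in the cluster led by Gdf15, 1.27 (1.12 to 1.44) in the valve-like one led by Slc41a1, and 0.98 (0.84 to 1.15) in that led by Pkhd1l1. In mural-like cells Ptprb stood at 423 and 310 CPM. In the 76 of these 404 cells that also had raised BEC markers it was at 810 and 925 CPM and found in 100% of cells, and in the remaining mural-like cells at 120 and 66.2 CPM.

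Of the 28 other genes of the Tie pathway on the list, 27 were tested on the plates and Dok2 was not. With Tie1/-2 deletion 0 rose and 4 fell (edgeR, where 0.854% of all genes were called lower). These were Tek (fell by 2.81 on the log2 scale) and Tie1 (fell by 2.15), the deleted receptors, Nos3 (fell by 3.97), the endothelial nitric oxide synthase, and Bmx (fell by 2.46), a Tec family kinase. Averaged over both deletions the same 4 fell, by 2.07 for Nos3, 2.04 for Tie1, 1.53 for Tek and 1.51 for Bmx (0.663% of all genes called lower). These falls are those of all LEC wells summed per plate. Among them collector-like wells numbered 71 and 63 in Tie1 Tie2 fl/fl and 11 and 15 in Tie1 Tie2 iΔLEC plates. The part of this shift in the falls was not tested. With Tie1 deletion 0 of the 27 were called by edgeR. The median over the list was -0.30 with Tie1/-2 deletion and -0.13 with Tie1 deletion, against 0.00 and -0.000922 over all genes tested. Both list medians include Tie1 and Tek, the genes targeted by the deletions, and were not computed without them.

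The genes most like each member were sought among all genes. Over the LEC wells within a plate, Angpt2 went with Scn3a (mean Spearman rho 0.287 over 8 plates, 0.177 to 0.438) and with the valve marker Neo1 (0.232, 0.0908 to 0.310), and no other gene reached 0.2 among 9043. For Ptprb no gene reached 0.2. Over the 22 clusters of the 10x cells, which share libraries and cell type composition, the highest Pearson r of log2(CPM + 1) was 0.965 for Angpt1 with C1qtnf7, followed by Pdgfrb, Dlk1, Epb41l1 and B830012L14Rik (0.894 to 0.871). For Ptprb it was 0.973 with Arhgef15, followed by Cyyr1, Adgrl4, Trim25 and Cds2 (0.970 to 0.960). For Angpt2 it was 0.919 with Grap, followed by Sgsm3, Pgm2, Wdr73 and Smad1 (0.907 to 0.893). Angpt4, with 73 UMIs in all cells kept, was too sparse for this measure.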

How the data were processed

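For the plates the authors deposited counts of reads for each gene and well, without normalization, and filtered UMI counts for the 10x libraries. The submitters' processing notes name TopHat2 2.1.1, SAMtools 0.1.18, featureCounts, Seurat 4.0.6 and Cell Ranger 2.1.1, whereas the matrix headers give Cell Ranger 6.0.2. Strand use in counting was not given in the sources used here. Plate tables were joined on 42526 genes holding 95.5% to 96.8% of counts.

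Wells with at least 1000 genes and cells with at least 500 genes and no more than 10% of UMIs from mitochondrial genes were kept (scanpy 1.11.5: 2000 variable genes, 30 components, 15 neighbors, Leiden resolution 1.0). A class needed 3 markers raised 1.5-fold. On the plates, which held sorted LECs, a cluster that met no list or matched BEC lists best was kept as LECs by default. Of the 3026 wells kept, 258 fibroblast-like and 25 keratinocyte-like wells were set aside. Scrublet marked 0.582% and 0.0675% of cells and was not relied on. LEC wells were summed per plate and all 8 plates fitted together in edgeR 4.0.16 (quasi-likelihood test after filterByExpr and TMM factors, with p-values adjusted over all genes tested by Benjamini-Hochberg, threshold 0.05); "normalized CPM" uses its factors. Alternatives used DESeq2 1.42.0 and limma 3.58.1. The code was tested on simulated data. Locus data are from GENCODE vM21. The Tie pathway genes named are those called, and like genes the 5 with the highest correlation (plates: mean rho at least 0.2). Members, lists and tests were chosen with earlier results of these data known.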

Additional observations from a re-analysis of the deposited data

Results flagged for a closer look

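With 1 library per treatment, none of the following differences between clusters was tested. In the venous-like BEC cluster led by Cysltr1, the Ang2 Ab to IgG ratio of Angpt2 was 0.551, opposite to the ratio above 1 in all 5 LEC clusters. A large part of the IgG UMIs of that cluster lay in 1 cell, as given above. In fibroblast-like cells Angpt2 had 22 UMIs in 42 cells after IgG and 0 UMIs in 34 cells after Ang2 Ab, a ratio of 0 with an upper bound of 0.278. For Ptprb, keratinocyte-like cells had a ratio of 0.383 (50 and 15 UMIs), and 24 of the 50 UMIs lay in 1 cell. In Schwann-like cells the Ptprb ratio was 0.0212, from 64 UMIs in 17 cells and 1 UMI in 11 cells, and 56 of the 64 UMIs lay in 1 cell.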

How the results depend on the processing

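Of 638 alternatives of 53 results, 553 kept the direction and the side of the threshold. Angpt2 in LECs with Tie1/-2 deletion and on average was called in every one run. With Tie1 deletion it was 1.37 with DESeq2 (adjusted p = 0.0257) and 1.39 without the filter on low counts (8.71e-05), both past the threshold, as was the difference between the deletions without the filter (1.52, 0.00278). By limma on the mean CPM per well Ptprb was -0.14, -0.0109 and -0.0759 with Tie1 deletion, Tie1/-2 deletion and on average, and Angpt4 with Tie1 deletion was 0.78 with no cluster removed. Genes called numbered 248 and 267 with DESeq2 and without the filter for Tie1 deletion, 1118 and 1180 (344 with limma) for Tie1/-2 deletion, 971 and 1087 on average, and 515 and 617 for the difference, where a layout term gave 11 and no cluster removed 17. The causes were not tested.

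Between classes, wells with at least 2000 genes gave 0.30 for Angpt2 and -0.45 for Ptprb in capillary-like minus collector-like LECs. The 4 Cre-negative plates gave 1.14, 1.36 and 2.51 for Angpt2 and -0.75, 1.19 and 0.45 for Ptprb (capillary-like minus collector-like, valve-like minus capillary-like, valve-like minus collector-like), and the 4 Cre-positive plates 1.11, 0.35 and 1.46, and -0.66, 1.13 and 0.47. Neither set can pass 0.05. The share of wells with Ptprb differed by -5.78 points without thinning. The BEC to LEC ratio of Ptprb was 7.32 after Ang2 Ab with cells of at least 1000 genes, 8.43 (Ang2 Ab) and 8.42 (IgG) without the top Scrublet scores, and 7.25 and 7.48 at resolution 2.0. The Ang2 Ab ratio under a mitochondrial limit of 5% was 1.25 for Angpt2 in BECs, 6.80 in LECs and 1.13 for Ptprb in BECs, which had 1.05 with cells of at least 1000 genes and 1.04 at resolution 2.0.

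Leaving out 1 plate at a time gave 80 to 216 genes for Tie1/-2 deletion, 48 to 144 on average and 2 to 17 for the difference, in which Angpt2 was called in 0 to 1 classes. Fitted values ranged from -3.45 to 4.07 for Angpt1 and -1.54 to 4.91 for Angpt4 (Tie1 deletion), and for Ptprb from -0.15 to 0.38 (Tie1 deletion), -0.00891 to 0.26 (Tie1/-2 deletion), -0.0154 to 0.25 (average) and -0.26 to 0.27 (difference), with shares from -4.53 to 14.1 points. Angpt2 with Tie1/-2 deletion ranged from 2.81 to 3.43 in capillary-like, 2.89 to 3.98 in collector-like, 2.35 to 2.81 in cluster 0 and 2.81 to 4.40 in cluster 3 LECs, and with Tie1 deletion from -0.60 to 1.22 in cluster 2.

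A replicate block was possible for Tie1 deletion. There the number stands for the layout and the labelled sex as well. The correlation of deviations from the group means was 0.324 for the numbered pair. The crossed value of -0.324 follows from it, because the 2 deviations of a group are opposite. The symbol-layout plates of the 2 Tie1 Tie2 groups gave 0.320, and those of different strains 0.123 to 0.222. This check cannot separate pairing from layout, so the numbers were not taken to pair the plates. With the block Angpt2 was 1.37 (adjusted p = 0.888, edgeR), Ptprb 0.10, and 0 genes were called.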
